A study of Mus musculus with 18 samples.

Results

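The sirtuins, Sirt1 to Sirt7, were followed by RNA-Seq in granule cells microdissected from the ventral dentate gyrus of the mouse hippocampus. The 7 genes were chosen by name as the whole family, and are 7 of 34620 gene symbols in the count tables. The comparison of interest set Sirt4, whose fall was known from earlier results of these data, against the 6 other members. All animals were genetically wild-type male Swiss Webster offspring, 8 to 12 weeks old, drawn from at least 3 litters per group. WT males had WT mothers and grandmothers. F1 males came from crosses of parents heterozygous for the serotonin 1A receptor, with 5HT1A-/+ mothers and grandmothers, and F2 males were born to WT mothers, themselves F1 females, with a 5HT1A-/+ grandmother. Each group had 2 libraries, and the same 2 WT libraries served as control for F1 and for F2. How many animals contributed to a library is not stated in the sources used here, so p-values measure the spread between these libraries.

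Sirtuins are NAD+-dependent enzymes that remove acetyl and other acyl groups from lysines, and some of them transfer ADP-ribose. Sirt1, Sirt6 and Sirt7 act mainly in the nucleus, Sirt2 mainly in the cytosol, and Sirt3, Sirt4 and Sirt5 in mitochondria. In the brain Sirt2 is known as an abundant protein of oligodendrocytes, and Sirt4 is known for inhibiting glutamate dehydrogenase and other enzymes of mitochondrial fuel use.

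The libraries held 26358165 to 33727936 reads assigned to genes. The share of uniquely mapped reads not lying wholly within annotated exons of a gene was 17.7% and 20.7% in WT, 13.8% and 12.2% in F1, and 13.9% and 17.4% in F2. These include reads that only partly overlap an exon. The microdissected tissue carried markers of the granule cells at a summed 779 to 794 counts per 1000000 normalized reads (CPM) in WT, 686 to 838 in F1 and 927 to 984 in F2, with none of 5 called in either comparison. Markers of other cells were also present, with no marker at 0 in any library. Over all tested genes 3.77% were called higher in F1 and 3.86% in F2 (edgeR, adjusted p under 0.01), which is the background for the marker counts. Summed oligodendrocyte markers ranged from 1155 to 2091 CPM in WT, 2362 to 3143 in F1 and 1630 to 3057 in F2, and 4 of 12 were called higher in F1 and 2 of 12 in F2. Astrocyte markers ranged from 2378 to 2610 CPM in WT, 2925 to 3549 in F1 and 3317 to 3977 in F2, with 1 of 7 called higher in F1 and 5 of 7 in F2. Microglia markers ranged from 137 to 138 CPM in WT, 164 to 187 in F1 and 181 to 210 in F2, with 0 of 9 and 5 of 9 called higher. Of 6 endothelial markers 0 and 1 were called higher, of 8 interneuron markers 2 and 3, and of 5 markers of the CA fields and mossy cells none. The part of these markers in the sirtuin values was not tested. In a bulk sample fewer cells of a type and less RNA per cell cannot be told apart. Htr1a, which encodes the serotonin 1A receptor and is intact in all 3 groups, was called in neither F1 (edgeR q = 0.332) nor F2 (q = 0.266).

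Sirt4 and Sirt7 fell in both F1 and F2, Sirt6 was called lower in F2 at the edge of the threshold and not in F1, and Sirt1, Sirt2, Sirt3 and Sirt5 were not called. All 7 genes were expressed well enough to be tested among 17421 genes. A gene was called at a Benjamini-Hochberg adjusted p (q) under 0.01 in edgeR's exact test. In F1 2 of 7 sirtuins were called, both lower, where 12.3% of all tested genes were called and 8.54% were called lower. In F2 3 of 7 were called, all lower, where 12% of all tested genes were called and 8.1% were called lower. Sirt4 and Sirt7 were called lower in both comparisons, as were 6.07% of all tested genes. Between F2 and F1 no sirtuin was called (q from 0.93 to 1), where 0.74% of all tested genes were. The median log2 fold change of the 7 was -0.18 in F1 and -0.13 in F2, beside 0.01 and -0.00 over all tested genes. With 7 members these shares describe the family and are not evidence of a family-wide shift.

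**Figure D1:**
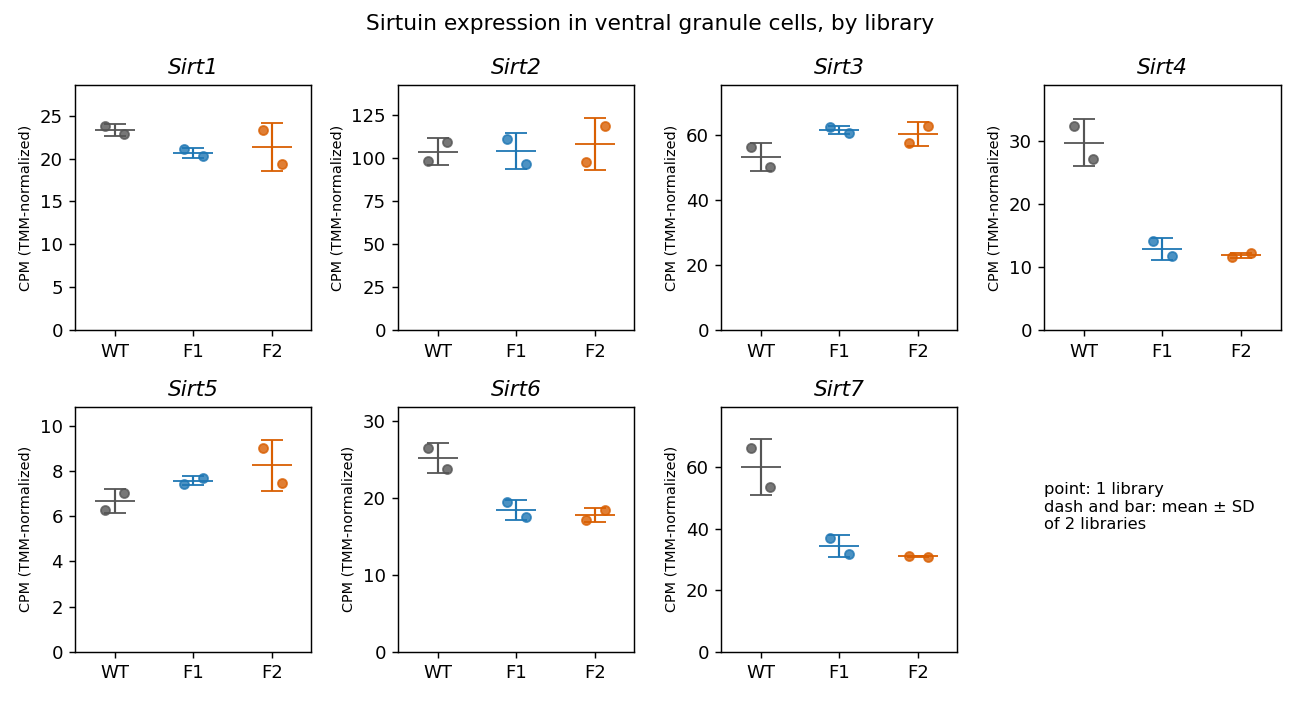
Expression of each sirtuin in CPM after TMM normalization (vertical axis, from 0) in WT, F1 and F2. Each point is 1 library, and the dash and bar give the mean ± SD of 2 libraries. The 4 F1 and F2 libraries sit below both WT libraries for Sirt4, Sirt6 and Sirt7, and overlap WT for Sirt1 and Sirt2.

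Sirt4 lies on chromosome 5 (mm9 chr5:115928019-115934734, minus strand), and its exons share no base with another annotated gene. Sirt4 reads numbered 1102 and 769 in WT, 426 and 360 in F1, and 309 and 327 in F2. Normalized for library size these were 32.4 and 27.1 CPM in WT, 14.1 and 11.7 CPM in F1, and 11.6 and 12.1 CPM in F2. The groups did not overlap: the highest F1 or F2 library was well below the lower WT library, and the F1 and F2 libraries were interspersed. Means were 29.7 ± 3.78 CPM in WT, 12.9 ± 1.70 in F1 and 11.8 ± 0.415 in F2 (SD, n = 2). Sirt4 fell by 1.21 on the log2 scale in F1 (SE 0.17, q = 8.38e-11), a change of -56.8%. In F2 it fell by 1.33 (SE 0.17, q = 1.46e-12), a change of -60.2%. Among all tested genes 4.6% had a lower log2 fold change than Sirt4 in F1 and 3.38% in F2. F2 did not differ detectably from F1 (log2 difference -0.12, 95% interval -0.46 to 0.22, q = 0.994). The share of reads not wholly within exons, given above, also differed between WT and most F1 and F2 libraries, and its part in the Sirt4 values was not tested.

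Sirt7, a nuclear and nucleolar deacetylase tied to ribosomal RNA transcription, showed the next largest fall (mm9 chr11:120479686-120486554, minus strand). It stood at 66.4 and 53.7 CPM in WT, 36.9 and 31.9 CPM in F1, and 31.1 and 30.9 CPM in F2. Every F1 and F2 library was below both WT libraries. The log2 fold change was -0.81 in F1 (SE 0.14, q = 7.15e-07) and -0.95 in F2 (SE 0.14, q = 2.97e-09), or -42.8% and -48.3%. Exons of Sirt7 share 2.41% of their bases with the neighbouring Mafg, and reads lying wholly there are assigned to neither gene under the counting used.

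Sirt6, a chromatin-bound deacetylase with roles in DNA repair and glycolytic gene control, moved less (mm9 chr10:81084530-81090542, minus strand). Its levels were 26.6 and 23.8 CPM in WT, 19.4 and 17.6 CPM in F1, and 17.1 and 18.5 CPM in F2, again with no overlap between WT and the rest. The F2 difference passed the threshold (log2 fold change -0.50, SE 0.15, q = 0.00941) and the F1 difference did not (-0.45, SE 0.15, 95% interval -0.74 to -0.15, q = 0.0222). The Sirt6 call in F2 rests on the settings: it was lost in 12 of 20 alternatives, including the quasi-likelihood test (q = 0.0229) and DESeq2 (q = 0.0134). The 12 included the fits without WT replicate 1 (log2 fold change -0.41), WT replicate 2 (-0.57), F2 replicate 1 (-0.44) or F2 replicate 2 (-0.55). Sirt4 and Sirt7 passed in all 20 alternatives of each comparison.

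The 4 other members gave no call in either comparison. Sirt1, the best-studied nuclear deacetylase of the family (mm9 chr10:62781753-62844452, minus strand), stood at 23.8 and 22.8 CPM in WT, 21.1 and 20.2 in F1, and 23.4 and 19.4 in F2. One F2 library lay within the WT range and the other below it, and its log2 differences were -0.18 in F1 (95% interval -0.47 to 0.12, q = 0.455) and -0.13 in F2 (-0.42 to 0.17, q = 0.62). Sirt2, the cytosolic tubulin deacetylase (mm9 chr7:29551754-29573684, plus strand), stood at 98.1 and 109 CPM in WT, 111 and 96.6 in F1, and 97.4 and 119 in F2. All 3 groups of Sirt2 overlapped, and its log2 differences were 0.00 in F1 (95% interval -0.26 to 0.27, q = 0.998) and 0.06 in F2 (-0.20 to 0.33, q = 0.811).

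The mitochondrial relatives of Sirt4 lay on the other side of WT. Sirt3, the main mitochondrial deacetylase (mm9 chr7:148049569-148068208, minus strand), stood at 56.4 and 50.3 CPM in WT, 62.5 and 60.7 in F1, and 57.7 and 63.0 in F2. Sirt5, a mitochondrial desuccinylase and demalonylase (mm9 chr13:43460882-43490571, plus strand), stood at 6.29 and 7.04 CPM in WT, 7.43 and 7.71 in F1, and 9.05 and 7.46 in F2. All 4 F1 and F2 libraries were above both WT libraries for these 2 genes, an arrangement found in 21% of all tested genes. The reverse arrangement, seen for Sirt4, Sirt6 and Sirt7, was found in 23.7%. The log2 differences of Sirt3 were 0.21 in F1 (95% interval -0.03 to 0.45, q = 0.229) and 0.18 in F2 (-0.06 to 0.42, q = 0.324). Those of Sirt5 were 0.18 (-0.21 to 0.58, q = 0.58) and 0.31 (-0.09 to 0.71, q = 0.307). The exons of Sirt3 share 13.6% of their bases with Psmd13 and Ric8, the largest such overlap in the family.

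**Figure D2:**
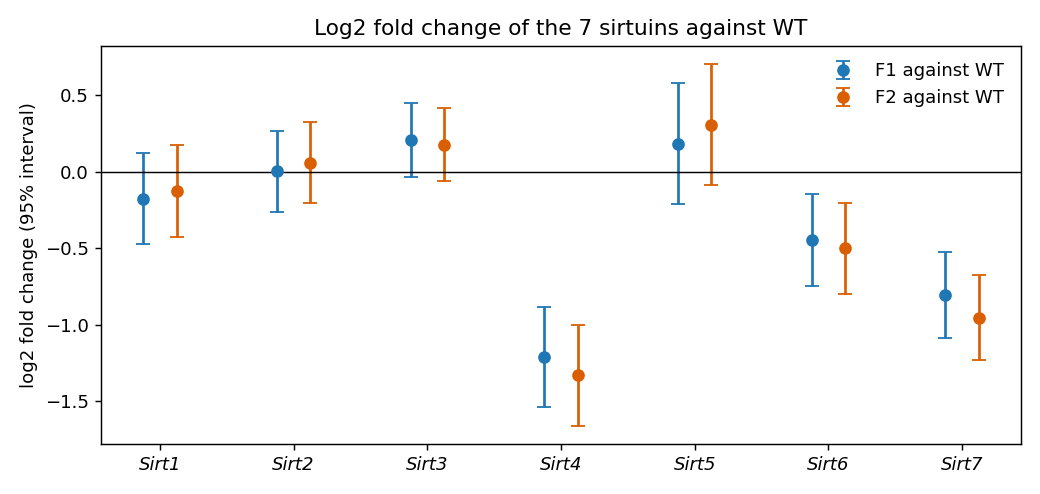
Log2 fold change of each sirtuin in F1 and F2 against WT (vertical axis), with approximate 95% intervals and 2 libraries per group. The intervals come from mean counts and edgeR's tagwise dispersion under a normal approximation. Sirt4 has the lowest points, -1.21 and -1.33, followed by Sirt7 and Sirt6, and the intervals of Sirt1, Sirt2, Sirt3 and Sirt5 include 0.

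Set against each relative in turn, Sirt4 was lower in F1 and F2 than in WT relative to all 6 others, by the most against Sirt3 and Sirt5 and by the least against Sirt7. Differences between log2 fold changes are given with the standard errors of both genes added in quadrature, which treats the genes as independent and takes no account of variation that 2 genes share between libraries. Against Sirt3 the difference was -1.42 in F1 (95% interval -1.83 to -1.01) and -1.51 in F2 (-1.92 to -1.10). Against Sirt5 it was -1.39 (-1.91 to -0.88) and -1.64 (-2.15 to -1.12). Thus the 3 mitochondrial members did not move together. Against Sirt6 it was -0.76 (-1.21 to -0.32) in F1 and -0.83 (-1.27 to -0.38) in F2. Against Sirt7 it was -0.41 (-0.84 to 0.03) and -0.38 (-0.81 to 0.06), intervals that include 0. Taken within each library, there were 0.488 and 0.504 Sirt4 reads per Sirt7 read in WT, 0.381 and 0.365 in F1, and 0.371 and 0.393 in F2. The ratio of Sirt4 to Sirt7 was thus lower in all 4 F1 and F2 libraries than in both WT libraries (0.496 ± 0.0115 in WT, 0.373 ± 0.0112 in F1 and 0.382 ± 0.0153 in F2, SD, n = 2). The exact permutation p was 0.333 in both comparisons, the smallest that 2 against 2 libraries allow. How often other pairs of genes separate in this way was not examined, so the contrast with Sirt7 is not settled. The ratios of Sirt4 to each of the 5 other members were also lower in all 4 libraries than in both WT libraries. Sirt4 was singled out for its fall and had the lowest log2 fold change of the family. Lower ratios to its relatives restate that fall and are not separate evidence.

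Set against the whole family within each library, a measure that does not depend on normalization, the same contrast was seen. For every 100 reads on the 6 other sirtuins there were 11.7 and 10.2 Sirt4 reads in WT, 5.44 and 4.97 in F1, and 4.90 and 4.71 in F2. The ranges were separate, but 2 against 2 libraries allow an exact two-sided permutation p no smaller than 0.333, which was the value in both comparisons, and likewise for the ratio of Sirt4 to each single member. Sirt4 made up 9.84% ± 0.876 of the family's reads in WT, 4.95% ± 0.303 in F1 and 4.58% ± 0.123 in F2 (SD, n = 2). Sirt7 made up 19.9% ± 2.22, 13.2% ± 0.413 and 12.02% ± 0.804. The shares of Sirt2 (34.4% in WT, 40.0% in F1 and 41.7% in F2) and Sirt3 (17.6%, 23.8% and 23.3%) were larger in F1 and F2, which shares of a fixed whole must be for some members when others decline. Summed over the 7 genes, sirtuin reads came to 310 and 294 CPM in WT, 273 and 246 in F1, and 247 and 270 in F2.

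**Figure D3:**
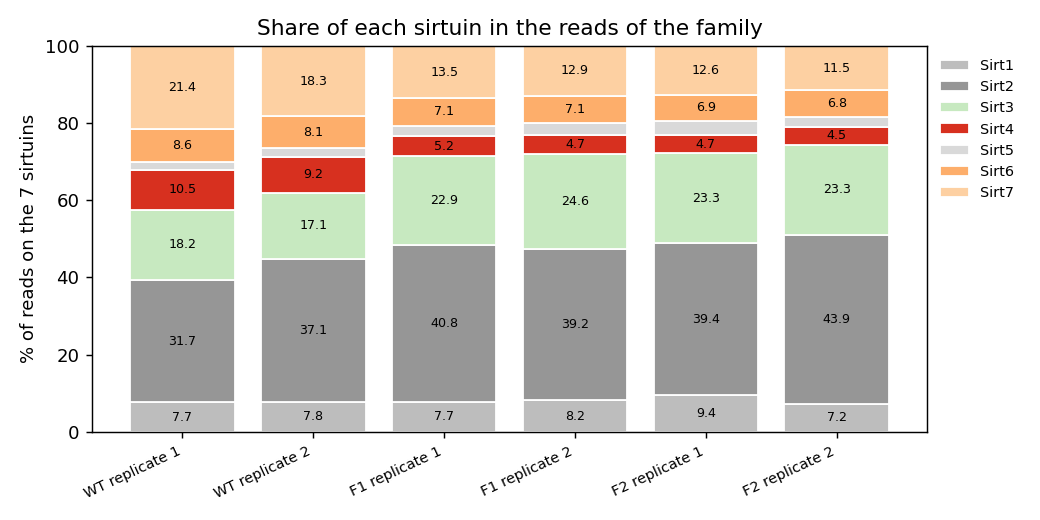
Share of each sirtuin in the reads on the 7 genes (vertical axis, % of reads, each bar 1 library). Sirt4 takes 10.5% and 9.2% in the WT libraries and 4.5% to 5.2% in the F1 and F2 libraries.

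Levels between members were compared per kilobase of exon. Over the 6 libraries the mean was 37.2 CPM per kilobase of merged exons for Sirt3, 29.5 for Sirt2, 8.12 for Sirt7, 7.57 for Sirt4, 7.35 for Sirt6, 4.09 for Sirt1 and 3.46 for Sirt5. Per kilobase of the longest protein-coding transcript, Sirt2 (57.1) was above Sirt3 (40.0), followed by Sirt7 (24.2), Sirt6 (10.8), Sirt4 (10.1), Sirt5 (5.16) and Sirt1 (4.92). The order of Sirt2 and Sirt3, of Sirt4 and Sirt6, and of Sirt1 and Sirt5 therefore depended on the length used. In WT, Sirt4 and Sirt7 lay close together on merged exons (12.4 ± 1.58 and 11.7 ± 1.75, SD, n = 2) and above Sirt6 (9.03 ± 0.711). In F1 and F2, Sirt4 (5.36 ± 0.709 and 4.94 ± 0.173) lay below Sirt6 (6.64 ± 0.472 and 6.39 ± 0.337) and Sirt7 (6.68 ± 0.683 and 6.03 ± 0.0301) in mean. Per kilobase of the longest protein-coding transcript, the WT means were 16.6 for Sirt4 and 34.8 for Sirt7. The closeness of Sirt4 and Sirt7 in WT therefore also depended on the length used.

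The merged length includes annotated exon sequence that belongs to no protein-coding transcript, such as that of transcripts that keep an intron. Such sequence made up 62.2% of the exon bases of Sirt7, 47.8% of Sirt2, 16.9% of Sirt1, 15.0% of Sirt4 and 6.79% of Sirt6, and none of Sirt3 and Sirt5. The annotation lists 3 intron-retaining transcripts for Sirt4, 6 for Sirt7, 1 for Sirt6, 4 for Sirt2, 2 for Sirt1 and none for Sirt3 and Sirt5. The median of this percentage was 0 over 15186 tested protein-coding genes and 9.24 over the 867 of these that were lower in both F1 and F2. No such median was taken for genes called higher, and the sets were not matched for level or number of transcripts. Within the family a high value went with a fall in Sirt7 and not in Sirt2. Counts per gene do not separate spliced from intron-retaining transcripts, and their part in the fall of Sirt4 and Sirt7 was not tested.

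Across the 6 libraries the log2 CPM of Sirt7 and Sirt6 followed that of Sirt4 most closely within the family (Pearson's r = 0.993 and 0.99), followed by Sirt1 (0.649), Sirt2 (-0.0927), Sirt3 (-0.726) and Sirt5 (-0.81). These values describe 6 libraries in 3 groups, and any gene that differs between WT and the rest scores high. Among all tested genes with a mean of at least 50 reads, the 5 most like Sirt4 were Zfp692 (r = 0.9993), Pnpt1 (0.9991), Clk4 (0.9987), Invs (0.9987) and Sema4g (0.9985). Clk4 encodes a kinase of splicing factors, Pnpt1 a mitochondrial RNA-processing enzyme, and Zfp692 a zinc finger protein. The log2 fold change of Clk4 was -1.19 in F1 and -1.29 in F2, and that of Sema4g -1.08 and -1.19, both near that of Sirt4. That of Zfp692 was lower (-1.40 and -1.53). Those of Invs (-0.73 and -0.81) and Pnpt1 (-0.53 and -0.60) were smaller in size.

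Neighbouring genes were examined for each sirtuin that was called. Pxn, which encodes the focal adhesion protein paxillin, is the nearest protein-coding gene on one side of Sirt4, 21951 bases away. It stood at 101.7 and 76.1 CPM in WT, 32.8 and 24.5 in F1, and 28.7 and 31.9 in F2, and fell by 1.63 on the log2 scale in F1 (q = 1.13e-18) and by 1.55 in F2 (q = 8.3e-17). On the other side, Pla2g1b, a secreted phospholipase gene 3288 bases away, had at most 1 read in a library and was not tested. Next to Sirt6, 743 bases away, Ankrd24 fell by 0.91 in F1 (q = 3.04e-07) and by 0.89 in F2 (q = 6.91e-07), whereas BC025920 was below 1 CPM in all libraries and was not called. Next to Sirt7, 436 bases away, Pcyt2, an enzyme of phosphatidylethanolamine synthesis, fell by 0.65 in F1 (q = 2.9e-04) and by 0.83 in F2 (q = 2.1e-06). Mafg, which overlaps Sirt7, was not called (log2 difference -0.25 in both, q = 0.149 and 0.159). Of 5 tested neighbours of the 3 called sirtuins, 3 were called lower in both comparisons, as were 6.07% of all tested genes. Of 8 tested neighbours of the 4 other sirtuins, none was called lower, 7 were not called in either comparison, and 1, Gfod1 beside Sirt5, was called higher in both (log2 fold change 0.63, q = 0.00194, and 0.72, q = 2.63e-04). Gfod1 was named after its values were seen.

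**Figure D4:**
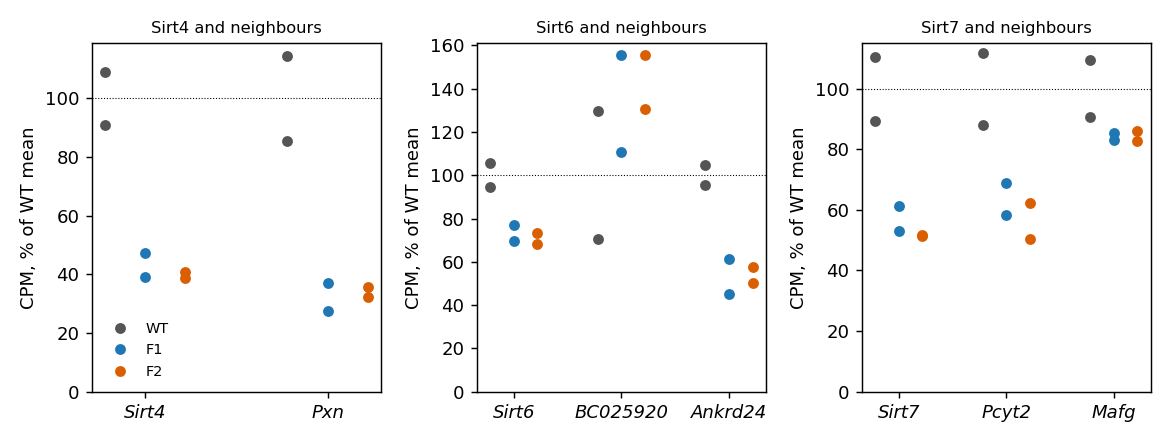
Expression of Sirt4, Sirt6 and Sirt7 and of their tested neighbours, as CPM in % of the WT mean (vertical axis, from 0), each point 1 library. Pxn, Ankrd24 and Pcyt2 lie below both WT libraries in all 4 F1 and F2 libraries, as Sirt4, Sirt6 and Sirt7 do. Mafg, which was not called, shows the same arrangement, found in 23.7% of all tested genes.

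Promoter sequences were compared because Sirt4, Sirt6 and Sirt7 were low in the same libraries. RefSeq promoter windows of 300 bases around the gene start (GRCm38.p6) were found for all 7 genes, 9 windows in all. The 100 bases just before the start are shown for Sirt4 (chr5:115484298-115484397, minus strand) and for the more upstream of 2 listed starts of Sirt6 (chr10:81627567-81627666, minus strand), read 5′ to 3′ on the gene's strand, to let the member that fell most be read beside a relative that fell less. Capitals mark matches on either strand to the letter strings named after them.
Sirt4: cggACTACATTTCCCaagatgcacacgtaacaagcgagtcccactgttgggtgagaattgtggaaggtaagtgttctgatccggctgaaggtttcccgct
Sirt6: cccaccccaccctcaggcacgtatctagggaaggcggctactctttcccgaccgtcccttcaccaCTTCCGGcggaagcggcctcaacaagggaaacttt

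The strings were chosen after the sequences had been read, and a match is a description and not a binding site. The capitals in Sirt4 match GGGANNTGTAGT in reverse, a string taken from the Sirt4 window itself. Sirt4 has 2 such matches in its full window and Sirt2, which was not called, also has 2, and the string occurs in 1.81% of all 32851 windows. The capitals in Sirt6 match CCGGAAG, the core letters of an ETS site, in reverse. This string occurs in 8.86% of all windows and was found in the same Sirt6 window, in Sirt7 (2 matches) and in 1 of the windows of Sirt3. GCGCATGCG, the core letters of an NRF1 site, occurs in 1.75% of all windows and was found in the same Sirt6 window (2 matches, on opposite strands and overlapping) and in Sirt7 (1 match). GGGCGG, the core of a GC box, occurs in 35.7% of all windows, and CCAAT in 37.4%. Neither of these was found in the Sirt4 window, while Sirt1 had 7 matches to GGGCGG. None of the 5 strings was found in the windows of Sirt4, Sirt6 and Sirt7 alike.

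Genes that make or spend NAD+ and genes of sirtuin partners were examined next. Of 16 listed genes of NAD+ synthesis and transport 12 were tested, and none was called in F1 and 2 in F2, both lower (median log2 fold change 0.01 and -0.11). Over all tested genes 8.54% were called lower in F1 and 8.1% in F2. Nadsyn1, the last enzyme of the de novo and nicotinic acid routes, stood at 7.50 and 5.70 CPM in WT, 4.49 and 3.30 in F1, and 3.66 and 3.75 in F2 (log2 fold change -0.76, q = 0.013, and -0.84, q = 0.00699). Naprt, the first enzyme of the nicotinic acid route, had log2 fold changes of -0.60 (q = 0.0133) and -0.64 (q = 0.00934). Nampt, the rate-limiting enzyme of the salvage route that recycles the nicotinamide released by sirtuins, was not called (0.25, q = 0.0979, and -0.01, q = 0.962). Among 7 tested of 8 other NAD+ consumers, 1 was lower and 1 higher in both comparisons (median 0.21 and 0.04). Parp2, a DNA damage-activated ADP-ribose polymerase, stood at 35.8 and 31.8 CPM in WT, 22.3 and 20.9 in F1, and 18.8 and 20.5 in F2 (log2 fold change -0.65, q = 1.63e-04, and -0.78, q = 3.29e-06). Tnks, the ADP-ribose polymerase tankyrase, stood at 24.7 and 26.9 CPM in WT, 33.6 and 54.6 in F1, and 62.6 and 50.2 in F2 (0.77, q = 0.00124, and 1.13, q = 6.01e-07).

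The 14 listed partners and substrates of Sirt4 were all tested, and none was called in F1 and 1, higher, in F2 (median log2 fold change 0.10 and 0.08). The background for the counts in this paragraph is 3.77% of all tested genes called higher in F1 and 3.86% in F2. Glud1, which encodes glutamate dehydrogenase, stood at 198 and 213 CPM in WT, 238 and 261 in F1, and 293 and 268 in F2. It rose in F2 (log2 fold change 0.45, q = 0.00206) and was not called in F1 (0.28, q = 0.0764). Mlycd, which encodes malonyl-CoA decarboxylase, was not called (0.07, q = 0.787, and 0.10, q = 0.679). Of 12 tested of 13 substrates of Sirt3 and Sirt5, 2 were higher in F1 and 1 in F2 (median 0.17 and 0.15). Sdha, a subunit of succinate dehydrogenase, rose by 0.43 in F1 (q = 0.00564) and 0.41 in F2 (q = 0.00924), and Atp5a1, a subunit of ATP synthase, rose by 0.38 in F1 (q = 0.00982) and had 0.32 in F2 (q = 0.0371). None of the 16 partners and targets of the nuclear and cytosolic sirtuins was called in either comparison (median 0.05 in both). Only transcripts were measured, so the action of sirtuins on the encoded proteins was not tested.

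**Figure D5:**
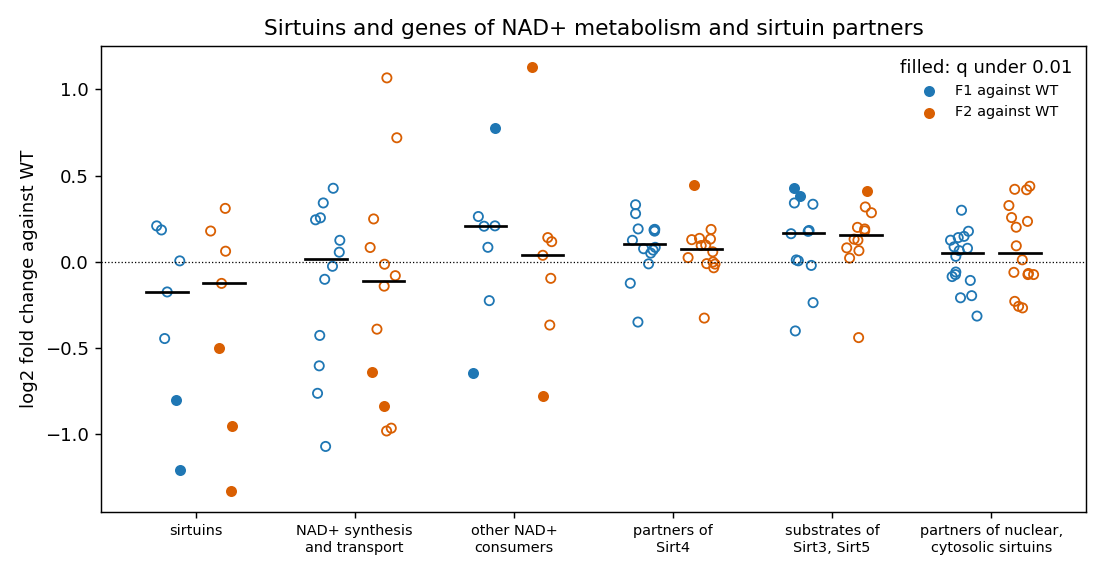
Log2 fold change against WT (vertical axis) of the sirtuins and of the tested genes of 5 related lists, for F1 (blue) and F2 (orange). Each circle is 1 gene, filled where q was under 0.01, and the black line is the list's median. Sirt4 has the lowest value of all genes shown in both comparisons.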

How the data were processed

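Ventral dentate gyrus was microdissected from frozen sections, and single-end 50 bp RNA-Seq libraries were made from a kit that does not mark strand. The authors aligned reads to mm9 with TopHat and counted reads per gene with HTSeq (intersection-strict), and deposited raw counts. Rows naming no gene were left out. They included reads not wholly within annotated exons of a gene (12.2% to 20.7% of unique reads) and non-unique alignments. The latter numbered 50.5 and 58.8 per 100 gene reads in WT, 47.2 and 38.8 in F1, and 42.7 and 61.3 in F2. The 12 bisulfite samples of the series were not used here.

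Counts were normalized by TMM, filtered by filterByExpr and tested with the exact test of edgeR 4.0.16, with common then tagwise dispersion over the 3 groups (CV between libraries 10.6%) and q under 0.01, the threshold of the study's results (its methods give 0.05). CPM is per 1000000 normalized gene reads. Scripts were tested on simulated counts. Alternatives were the quasi-likelihood and likelihood-ratio tests, DESeq2 1.42.0, other size factors, filters, dispersions and thresholds, offsets for GC content and length, a replicate block and leaving out each library. Positions are from GENCODE M1 on mm9, matched by symbol for 33294 of 34620 genes. Members and lists were chosen with earlier results of these data known. Named genes were all sirtuins, list members called in F1 or F2 whose fold changes had the same sign in both (at most 4 per list, by q), Nampt, Glud1, Mlycd and Htr1a, neighbours of called sirtuins, and the 5 genes most correlated with Sirt4.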

Additional observations from a re-analysis of the deposited data

How the results depend on the processing

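Sirt4 kept its direction and its call in all 20 alternatives of both comparisons with WT, with log2 fold changes of -1.34 to -1.07 in F1 (highest q = 0.000471) and -1.44 to -1.19 in F2 (highest q = 0.000405). Sirt7 ranged from -0.94 to -0.64 and from -1.09 to -0.79 and was always called. Sirt6 in F1 passed under the threshold of 0.05 and with crossed F2 numbers in the block. The number of sirtuins called was 2 to 3 in F1, 2 to 3 in F2, and 0 for F2 against F1.

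Directions turned for members that were not called. Sirt2 in F1 was -0.020 with library totals, -0.028 with a mean of at least 50 reads and -0.0015 with the crossed block. Leaving out 1 library gave -0.088 to 0.11 for Sirt2 and, in F2, -0.26 to 0.0074 for Sirt1 and -0.083 to 0.20 for Sirt2. For F2 against F1 it gave -0.086 to 0.18 for Sirt1, -0.095 to 0.20 for Sirt2, -0.095 to 0.035 for Sirt3, -0.25 to 0.021 for Sirt4, -0.017 to 0.26 for Sirt5 and -0.12 to 0.017 for Sirt6. GC and length offsets gave 0.00023 for Sirt3 in F2 against F1, and 0.00019 with the block. The causes were not tested.

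Over all genes, 2144 were called in F1, 2084 in F2 and 129 between F2 and F1. The quasi-likelihood test called 1029, 997 and 2, the same with the replicate block 848, 758 and 9, and a threshold of 0.05 called 3623, 3606 and 230. Leaving out 1 library gave 988 to 2043, 703 to 2585 and 52 to 223, the group left with 1 library being assumed to vary like the others. The count moved by over 1.5 times in F1 without WT replicate 1 (988), WT replicate 2 (1355) or F1 replicate 2 (1072), in F2 without WT replicate 1 (802), F2 replicate 1 (703) or F2 replicate 2 (973), and between F2 and F1 without F1 replicate 2 (223) or F2 replicate 1 (52).

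Replicate numbers did not pair the samples: same-numbered deviations had correlations of -0.00862 (WT and F1), -0.0898 (WT and F2) and -0.23 (F1 and F2). A likelihood-ratio test with the replicate block called 1743, 1758 and 117 genes, and 2253, 2211 and 133 without it. With F2 numbers crossed, an alternative added after seeing the data, it called 2679, 2752 and 233. With 2 libraries per group, the intervals of Sirt1, Sirt2, Sirt3 and Sirt5 still allow modest changes.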
